A study of Mus musculus with 9 samples.

Results

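Sterol and fatty acid synthesis genes under the control of SREBP (sterol regulatory element-binding protein) were examined in liver macrophages of mice with diet-induced steatohepatitis. The set was a fixed list of 35 gene symbols, all of which had a value in a table of 24312 genes. It held 18 sterol synthesis enzymes, 5 SREBP regulators, 2 genes for sterol transport and esterification, and 10 fatty acid synthesis enzymes. Of these, 34 passed the filter of 1 FPKM (a read level corrected for gene length and library size) in at least 3 libraries, and Elovl6 did not. Ly6C-low F4/80+ macrophages were sorted from wild-type (WT) C57BL/6J mice. The mice had been fed CDA-HFD, a high-fat diet without choline and with amino acids in place of protein, which produces steatosis and fibrosis, for 7 weeks (7w) or 10 weeks (10w), or a normal diet (ND). There were 3 libraries in each group, written as 7w 1, 10w 1, ND 1 and so on. The labels call them biological replicates and the study describes each as 1 animal. The methods state male mice aged 6 to 12 weeks at the start of CDA-HFD. No age at collection was given for the ND mice in the sources used here, so diet and age cannot be told apart. The gate takes both resident Kupffer cells and macrophages derived from monocytes, so a group mean is an average over a mixed population. The study reports that under CDA-HFD macrophages derived from monocytes replaced the resident cells, which were barely detectable by the earlier time used here. A difference between CDA-HFD and ND is therefore also one between populations of different make-up. Diet and cell origin cannot be told apart in these libraries.

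Cells make cholesterol from acetyl-CoA through mevalonate, isoprenoid pyrophosphates and squalene, and fatty acids from the same precursor through malonyl-CoA. SREBP transcription factors are made as membrane proteins that Scap carries out of the endoplasmic reticulum for cleavage when sterols are low, while Insig proteins hold the complex back when sterols are high. SREBP2 mainly drives the sterol genes and the SREBP1c isoform of SREBP1 mainly the fatty acid genes, which are also induced through the oxysterol receptor LXR.

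The estimated depth was 5400000 to 6260000 reads per library, and replicates of 1 group correlated at r = 0.956 to 0.969 across genes. The macrophage genes Adgre1 (F4/80), Csf1r and Cd68 were between 191 and 313 FPKM in every library, near the limit that removal of duplicate reads sets at this depth (319 to 370 FPKM). Of these, Adgre1 (log2 fold change −0.39, adjusted p = 3.42e-07) and Csf1r (−0.30, adjusted p = 1.54e-06) fell in CDA-HFD libraries. Kupffer cell markers fell in CDA-HFD libraries (14 of 15) and monocyte markers rose (8 of 10 tested, with 1 that fell). Their summed levels were 1751 to 2013 FPKM at 7w and 1667 to 1936 FPKM at 10w, against 3231 to 3399 FPKM in ND, for Kupffer cell markers. For monocyte markers the sums were 741 to 846 FPKM at 7w and 844 to 899 FPKM at 10w, against 283 to 287 FPKM in ND. Hepatocyte markers also fell (12 of 15 tested, with 1 that rose), with sums of 420 to 436 FPKM at 7w and 352 to 426 FPKM at 10w, against 648 to 1079 FPKM in ND. Lipid-associated macrophage markers rose (9 of 10), with sums of 2116 to 2269 FPKM at 7w and 1969 to 2054 FPKM at 10w, against 749 to 815 FPKM in ND. Of the 5 stellate cell and fibroblast markers tested, 4 rose and 1 fell, with sums over 10 genes of 19.8 to 28.6 FPKM at 7w and 12.5 to 33.0 FPKM at 10w, against 4.05 to 8.85 FPKM in ND. Endothelial markers went both ways (4 of 10 rose and 3 fell), as did lymphocyte markers (1 of 8 rose and 3 fell). Of 10 proliferation markers 2 rose and 0 fell. Proliferation sums were 206 to 253 FPKM at 7w and 195 to 252 FPKM at 10w, against 183 to 219 FPKM in ND. In bulk samples a change in the share of a cell type cannot be told apart from a change of RNA per cell, and the part of these shifts in the results below was not tested.

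Most sterol enzymes were higher in CDA-HFD libraries, while most fatty acid enzymes did not pass the test. Across both CDA-HFD groups, 11 of the 18 sterol enzymes rose, 1 fell and 6 did not pass the test, with a median log2 fold change of 0.57, against −0.03 over all 11783 genes tested. Over all genes 22.8% rose and 24.3% fell at the same threshold, a limma adjusted p below 0.05. A rise of at least 2-fold was seen for 4 sterol enzymes, where 7.23% of all genes rose by that much. The summed level of the 18 enzymes was 579 to 598 FPKM at 7w and 540 to 618 FPKM at 10w, against 358 to 382 FPKM in ND. Of the 9 fatty acid enzymes tested, 1 rose, 2 fell and 6 did not pass, with a median of 0.03. Their summed level, with Elovl6 included, was 333 to 365 FPKM at 7w and 357 to 366 FPKM at 10w, against 403 to 407 FPKM in ND. The difference between the arms was not tested.

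**Figure D1:**
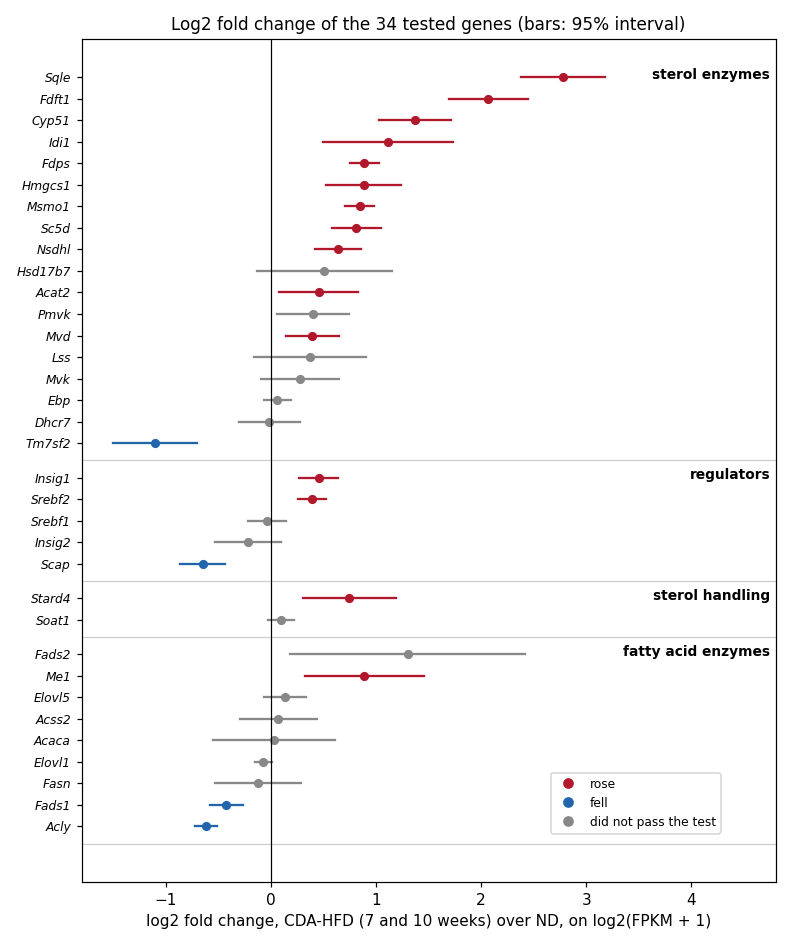
Log2 fold change of each tested gene between CDA-HFD (the mean of the 7w and 10w group means) and ND on log2(FPKM + 1), in 4 groups. Points are limma estimates, bars their 95% intervals, and colour gives the call. Sqle (2.78) and Fdft1 (2.07) stand at the top of the sterol enzymes and Tm7sf2 (−1.10) at the bottom, while 6 of 9 fatty acid enzymes did not pass the test.

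Of the 8 enzymes that lead to squalene, 6 rose, where 22.8% of all tested genes rose. Hmgcs1, the synthase that makes HMG-CoA, had 33.7, 27.3 and 34.2 FPKM at 7w and 34.0, 35.1 and 20.1 FPKM at 10w, against 16.1, 15.4 and 16.3 FPKM in ND. All CDA-HFD libraries lay above all ND libraries, with 10w 3 the lowest of them, and the log2 fold change was 0.88 (SE 0.17, adjusted p = 0.000866). Idi1, the isomerase that makes dimethylallyl pyrophosphate, was low, with 4.65, 3.07 and 5.02 FPKM at 7w and 5.38, 3.95 and 3.06 FPKM at 10w, against 0.957, 2.57 and 0.891 FPKM in ND. No CDA-HFD library reached down to ND 2, the highest ND library (log2 fold change 1.11, SE 0.28, adjusted p = 0.00665). This value of Idi1 was 0.51 with a pseudocount of 5 and 1.57 with one of 0.1. Fdps, which makes farnesyl pyrophosphate, had 89.0, 87.0 and 84.1 FPKM at 7w and 78.2, 85.7 and 78.9 FPKM at 10w, against 40.7, 47.5 and 46.6 FPKM in ND. The groups were far apart relative to their spread, and the log2 fold change was 0.89 (SE 0.06, adjusted p = 3.42e-07). Fdft1, squalene synthase, which commits farnesyl pyrophosphate to sterols, had 17.0, 20.5 and 22.3 FPKM at 7w and 22.5, 20.6 and 17.5 FPKM at 10w, against 3.67, 3.29 and 5.21 FPKM in ND. The ratio of the CDA-HFD mean to the ND mean was 4.95, the log2 fold change was 2.07 (SE 0.17, adjusted p = 1.17e-06), and it ranked 351 of the 11783 genes by log2 fold change.

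The other enzymes before squalene changed by less. Acat2, the cytosolic thiolase at the entry of the pathway, averaged 12.8 ± 2.18 FPKM at 7w and 14.5 ± 3.12 FPKM at 10w, against 9.57 ± 0.80 FPKM in ND (SD, n = 3 each). It passed the test narrowly (log2 fold change 0.45, adjusted p = 0.0485). Without 7w 1, 7w 2, 10w 1, 10w 2 or any of the 3 ND libraries it did not pass, with adjusted p between 0.0676 and 0.135. Mvd, mevalonate diphosphate decarboxylase, averaged 35.04 ± 4.32 FPKM at 7w and 34.7 ± 2.93 FPKM at 10w, against 26.4 ± 3.68 FPKM in ND (log2 fold change 0.39, adjusted p = 0.0148). When ND 3 was left out, Mvd no longer passed (adjusted p = 0.0866). The kinases Mvk and Pmvk, which phosphorylate mevalonate and its product, did not pass the test. Mvk averaged 15.8 ± 1.90 FPKM at 7w and 17.9 ± 3.53 FPKM at 10w, against 13.8 ± 2.68 FPKM in ND (95% interval of the log2 fold change −0.09 to 0.65). For Pmvk the means were 43.9 ± 11.2 FPKM at 7w and 44.9 ± 6.93 FPKM at 10w, against 33.0 ± 3.66 FPKM in ND (0.06 to 0.74, adjusted p = 0.0511). Pmvk passed without 7w 1 (adjusted p = 0.00509) or 10w 1 (0.0266). It also passed, narrowly, with median-ratio scaling (0.0449), quantile normalization (0.0426), a pseudocount of 5 (0.0498) or a fit of the compared groups (0.0441).

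From squalene on, 5 of 10 enzymes rose and 1 fell, where 22.8% of all tested genes rose and 24.3% fell. Sqle, squalene epoxidase, which adds the first oxygen of the sterol part of the pathway, had 31.4, 32.4 and 33.3 FPKM at 7w and 32.7, 39.8 and 27.7 FPKM at 10w, against 3.07, 5.87 and 3.23 FPKM in ND. The lowest CDA-HFD library, 10w 3, stood well above the highest ND library. Sqle had the largest rise of the 34 genes tested, with a ratio of means of 8.11 and a log2 fold change of 2.78 (SE 0.18, adjusted p = 1.48e-07), and it ranked 205 by that measure. Cyp51, lanosterol 14-alpha-demethylase, had 36.5, 37.2 and 41.1 FPKM at 7w and 42.4, 43.9 and 27.5 FPKM at 10w, against 11.6, 13.8 and 16.9 FPKM in ND. The groups did not overlap and 10w 3 was again the lowest CDA-HFD library (log2 fold change 1.37, SE 0.16, adjusted p = 1.91e-05). Msmo1, the C4-methyl sterol oxidase, had 91.9, 93.03 and 90.3 FPKM at 7w and 90.4, 91.2 and 84.2 FPKM at 10w, against 45.5, 55.0 and 49.4 FPKM in ND. The 6 CDA-HFD values were close to each other and above all ND values (log2 fold change 0.84, SE 0.06, adjusted p = 4.41e-07). Sc5d, lathosterol oxidase, had 41.5, 37.5 and 34.99 FPKM at 7w and 35.2, 41.6 and 32.5 FPKM at 10w, against 22.3, 19.4 and 20.4 FPKM in ND. Its groups were apart as well (log2 fold change 0.81, SE 0.11, adjusted p = 5.93e-05). Nsdhl, which works with Msmo1 in removal of the C4 methyl groups, averaged 29.8 ± 1.81 FPKM at 7w and 31.8 ± 2.34 FPKM at 10w, against 19.5 ± 1.18 FPKM in ND (log2 fold change 0.64, adjusted p = 0.000247).

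Tm7sf2 was the only sterol enzyme that fell. It is a sterol C14 reductase, a step that the lamin B receptor Lbr can also carry out. Tm7sf2 had 7.13, 6.14 and 9.51 FPKM at 7w and 9.22, 9.18 and 6.26 FPKM at 10w, against 17.7, 16.6 and 19.3 FPKM in ND. Every CDA-HFD library lay below every ND library (log2 fold change −1.10, SE 0.18, adjusted p = 0.000369). Lbr, which is not in the set, averaged 58.0 ± 3.83 FPKM at 7w and 63.6 ± 3.40 FPKM at 10w, against 64.8 ± 0.973 FPKM in ND, and did not pass (log2 fold change −0.09, adjusted p = 0.236). It was named here for its role after its values were seen.

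Lss, Hsd17b7, Ebp and Dhcr7 did not pass the test. Dhcr7, 7-dehydrocholesterol reductase, which makes cholesterol in the last step of 1 branch, was the sterol enzyme nearest to 0. It had 18.2, 21.2 and 25.0 FPKM at 7w and 25.4, 24.6 and 22.3 FPKM at 10w, against 26.5, 20.2 and 22.4 FPKM in ND. The groups overlapped, with 7w 1 below and ND 1 above all libraries of the other diet, and the 95% interval of the log2 fold change of Dhcr7 was −0.30 to 0.27. Ebp, the sterol isomerase, averaged 72.3 ± 5.38 FPKM at 7w and 69.9 ± 1.83 FPKM at 10w, against 68.1 ± 2.66 FPKM in ND, an interval of −0.07 to 0.19. Lss, lanosterol synthase, averaged 4.02 ± 1.18 FPKM at 7w and 4.34 ± 1.15 FPKM at 10w, against 2.96 ± 0.511 FPKM in ND (−0.16 to 0.91). Hsd17b7, a 3-keto sterol reductase, averaged 2.61 ± 1.23 FPKM at 7w and 3.77 ± 1.54 FPKM at 10w, against 1.82 ± 0.358 FPKM in ND (−0.13 to 1.15). The intervals of these low genes include changes as large as those of Sc5d or Fdps.

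**Figure D2:**
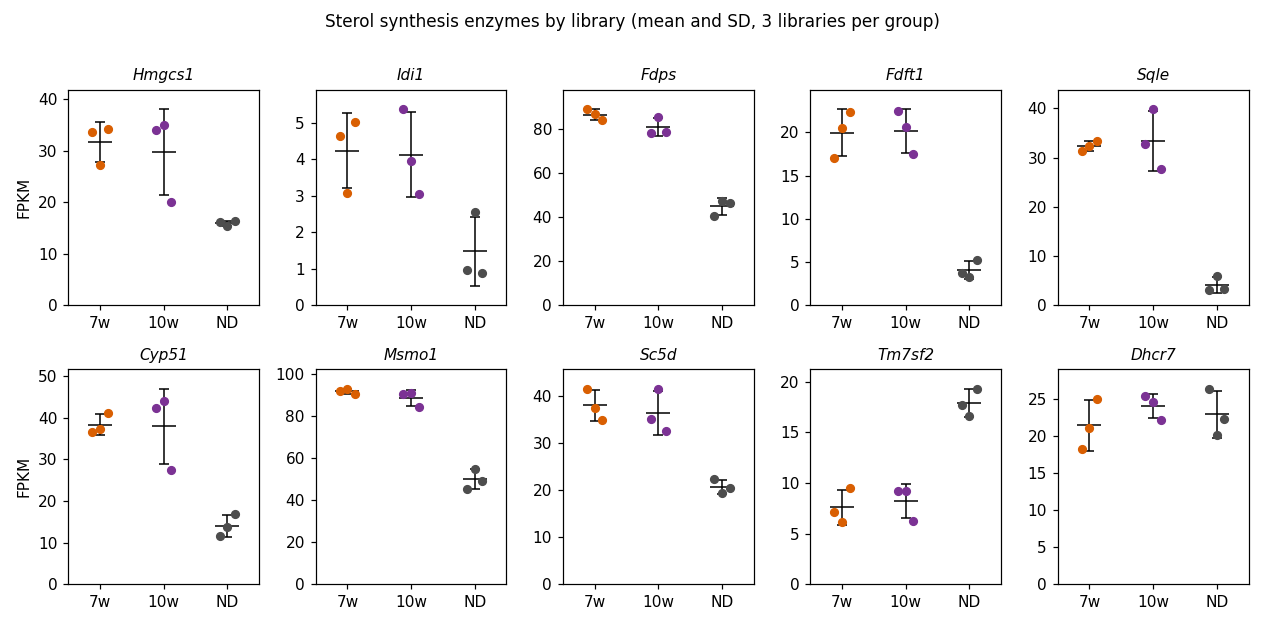
FPKM of 10 sterol synthesis enzymes in each library (points), with group mean and SD (bars, 3 libraries per group), for 7w, 10w and ND from left to right. In 8 panels the 6 CDA-HFD points lie above the 3 ND points, in the Tm7sf2 panel they lie below, and in the Dhcr7 panel the groups overlap between 20.2 and 25.4 FPKM.

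Taken by library, all CDA-HFD values lay above all ND values for 10 of the 18 sterol enzymes and below for 1, where 19.3% and 21.3% of all tested genes did so. The library 10w 3 had the lowest value of its group for 11 of the 18 enzymes, and for 8 of the 11 that rose. Its summed level was 540 FPKM, against 598 FPKM in 10w 1 and 618 FPKM in 10w 2. Marker sums of 10w 3 also differed from those of its group. Endothelial markers summed to 206 FPKM in 10w 3, against 103 FPKM in 10w 1 and 83.1 FPKM in 10w 2. In the other groups the endothelial sums were 84.6 to 173 FPKM (7w) and 181 to 202 FPKM (ND). For neutrophil markers (7 with a value) the sums were 207 FPKM in 10w 3, 88.5 FPKM in 10w 1 and 66.9 FPKM in 10w 2. The neutrophil sums were 54.8 to 104 FPKM at 7w and 45.2 to 137 FPKM in ND. For lymphocyte markers they were 71.9 FPKM in 10w 3, 26.1 FPKM in 10w 1 and 42.9 FPKM in 10w 2. The lymphocyte sums were 16.3 to 34.7 FPKM at 7w and 41.4 to 45.2 FPKM in ND. Kupffer cell markers summed to 1936 FPKM in 10w 3, against 1667 FPKM in 10w 1 and 1700 FPKM in 10w 2, and monocyte markers to 844 FPKM in 10w 3, against 899 FPKM in 10w 1 and 882 FPKM in 10w 2. Stellate cell and fibroblast markers summed to 14.6 FPKM in 10w 3, against 33.0 FPKM in 10w 1 and 12.5 FPKM in 10w 2. The part of these shifts in the lower sterol levels of 10w 3 was not tested. Among the neutrophil markers, Mpo, Camp and Ngp were listed at 0 in all 10w libraries. Of the 3 neutrophil markers tested, 1 rose at 10w against ND (log2 fold change 4.60) and 1 fell. Without 10w 3 the count of sterol enzymes that rose was 11, as with it.

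**Figure D3:**
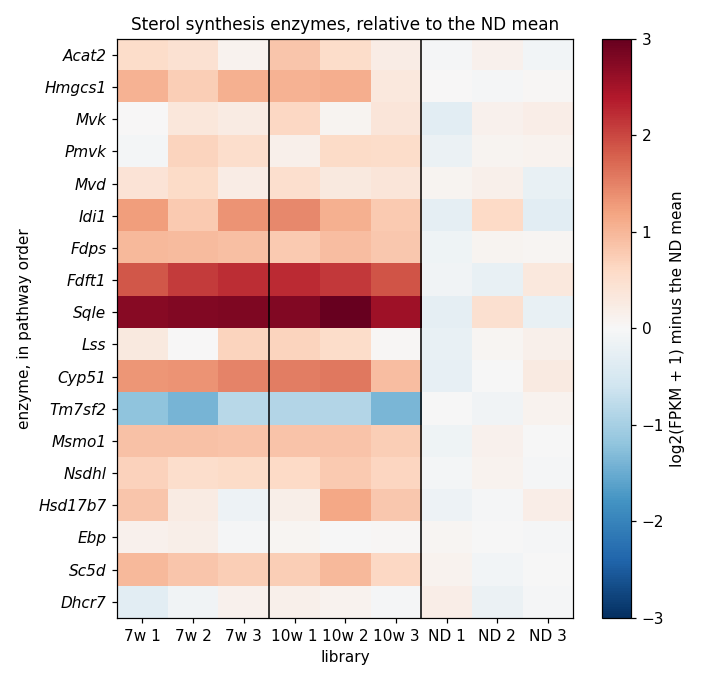
Level of the 18 sterol enzymes in each library, as log2(FPKM + 1) minus the mean of the 3 ND libraries, in pathway order from top to bottom and with libraries ordered 7w, 10w and ND. Sqle and Fdft1 are the darkest red rows, Tm7sf2 is blue in the 6 CDA-HFD libraries, and 10w 3 is paler than 10w 1 and 10w 2 for Hmgcs1, Idi1 and Cyp51.

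At each time alone, 10 sterol enzymes rose and 1 fell against ND. These were the same genes at both times, the 11 named above without Acat2 (adjusted p = 0.153 at 7w and 0.0517 at 10w). Over all genes 21.3% rose and 22.4% fell at 7w, and 19.3% rose and 20.6% fell at 10w. Sqle had a log2 fold change of 2.77 (SE 0.21) at 7w and 2.79 (SE 0.21) at 10w, and Fdft1 2.06 (SE 0.20) and 2.08 (SE 0.20). Tm7sf2 had −1.15 (SE 0.21) at 7w and −1.05 (SE 0.21) at 10w. Both comparisons use the same ND libraries. Calls of Idi1 and Mvd at a single time rested on few libraries. For Idi1 the 7w call was lost without 7w 3 (adjusted p = 0.0516), ND 1 (0.0577) or ND 3 (0.0573), and the 10w call without 10w 1 (0.0701), ND 1 (0.0719) or ND 3 (0.0722). For Mvd the 7w call was lost without 7w 1 (0.071), 7w 2 (0.122) or ND 3 (0.119), and the 10w call without 10w 1 (0.116), 10w 3 (0.0651), 7w 1 (0.0502), ND 1 (0.0514) or ND 3 (0.141). Acat2 passed at 10w without 10w 3 (0.0225) or 7w 3 (0.0458), and Hsd17b7 without 10w 1 (0.0487). Pmvk passed at 7w without 7w 1 (0.00889) and at 10w without 10w 1 (0.0386) or 7w 1 (0.0252).

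Some of these genes share sequence with others, which matters because the library kit does not keep strand. The 3′ end of Fdft1 (GRCm38 chr14:63145150-63179578, minus strand) overlaps the 3′ end of the protease gene Ctsb on the other strand over 774 exonic bases, 18.3% of Fdft1 exonic sequence. Ctsb was higher than Fdft1 in all groups, with 213 ± 3.86 FPKM at 7w and 204 ± 4.61 FPKM at 10w, against 234 ± 6.30 FPKM in ND, and its log2 fold change was −0.16, opposite in sign to that of Fdft1. Tm7sf2 (chr19:6062821-6068373) shares 12.1% of its exonic bases with Vps51, whose log2 fold change was 0.01 (adjusted p = 0.921). Vps51 was higher than Tm7sf2 in all groups, with 66.25 ± 7.00 FPKM at 7w and 63.9 ± 1.94 FPKM at 10w, against 64.5 ± 2.79 FPKM in ND. Of the 75-base stretches of Acat2 transcripts, 33.9% also occur in other genes, mainly Acat3. That share was 23.6% for Idi1 (mainly Gm13502), 23.5% for Fdps (mainly Gm43738), 9.79% for Hmgcs1 (mainly Gm48342), and 21.8% for Fdft1 (mainly Ctsb). In the fatty acid arm it was 26.8% for Acaca (mainly Gm5182) and 20% for Me1 (mainly Gm7049). For Sqle (chr15:59315077-59331192) and Msmo1 (chr8:64718139-64733792) it was 0%. Levels of the genes with shared stretches are uncertain, and the share does not bound the error where the partner is more abundant, as for Fdft1 and Tm7sf2.

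Srebf2, which encodes SREBP2, rose and Srebf1, which encodes SREBP1, did not pass the test. Srebf2 had 55.6, 55.2 and 57.2 FPKM at 7w and 56.2, 59.3 and 54.1 FPKM at 10w, against 43.2, 42.4 and 42.3 FPKM in ND. The spread within groups was small and no values overlapped (log2 fold change 0.39, SE 0.06, adjusted p = 0.000266). Srebf1 had 44.6, 44.9 and 47.6 FPKM at 7w and 50.2, 42.9 and 39.6 FPKM at 10w, against 47.2, 45.0 and 46.3 FPKM in ND. The groups overlapped and the 95% interval of its log2 fold change was −0.22 to 0.14. Insig1, which retains the Scap complex and is itself an SREBP target, rose to 50.1 ± 6.30 FPKM at 7w and 50.9 ± 1.84 FPKM at 10w, against 36.5 ± 0.748 FPKM in ND (log2 fold change 0.45, SE 0.08, adjusted p = 0.000764). Its relative Insig2 averaged 28.4 ± 4.48 FPKM at 7w and 24.2 ± 5.43 FPKM at 10w, against 30.4 ± 2.74 FPKM in ND, and did not pass (log2 fold change −0.22, adjusted p = 0.235), nor at 10w alone except without 10w 1 (adjusted p = 0.0254). Scap, the escort protein, fell to 25.1 ± 2.34 FPKM at 7w and 24.7 ± 1.44 FPKM at 10w, against 39.5 ± 1.87 FPKM in ND (log2 fold change −0.65, SE 0.10, adjusted p = 0.00017). Values were per gene, so that of Srebf1 does not separate the SREBP1c isoform from others. These are RNA levels, and cleavage of SREBP proteins was not measured.

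**Figure D4:**
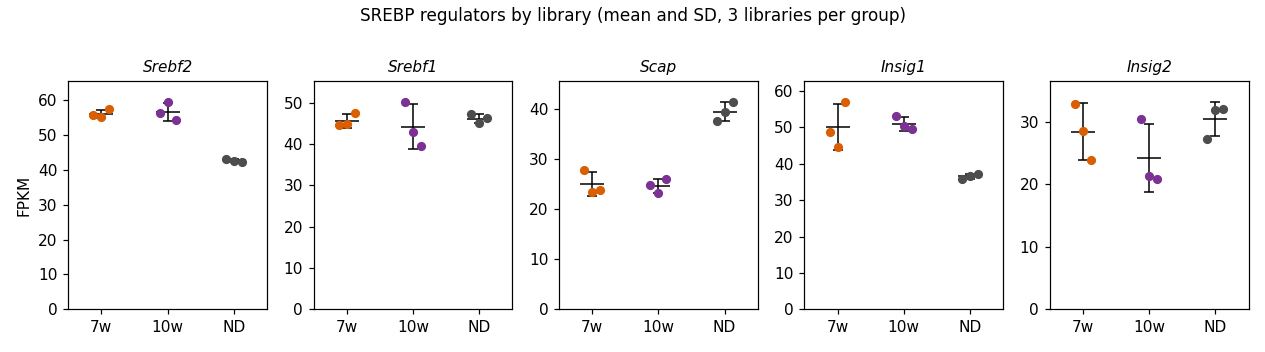
FPKM of the 5 SREBP regulators in each library (points), with group mean and SD (bars, 3 libraries per group), for 7w, 10w and ND from left to right. Srebf2 and Insig1 are above ND in all 6 CDA-HFD libraries, Scap is below (23.2 to 27.8 FPKM, against 37.7 to 41.5 FPKM in ND), and Srebf1 and Insig2 overlap.

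Of the 2 genes that handle cholesterol inside the cell, Stard4, a sterol transport protein, rose and Soat1, which esterifies cholesterol for storage, did not pass. Stard4 averaged 10.6 ± 1.44 FPKM at 7w and 13.1 ± 3.69 FPKM at 10w, against 6.64 ± 1.56 FPKM in ND (log2 fold change 0.75, SE 0.20, adjusted p = 0.00961). When ND 1 was left out, Stard4 no longer passed (adjusted p = 0.0519). At 7w alone Stard4 was just past the threshold (adjusted p = 0.0504), and it passed there without 10w 1 (0.0356), 10w 2 (0.0454) or ND 3 (0.0308). Soat1 averaged 92.2 ± 5.91 FPKM at 7w and 86.0 ± 2.21 FPKM at 10w, against 83.2 ± 5.73 FPKM in ND (log2 fold change 0.10, 95% interval −0.03 to 0.22). At 7w alone it passed without 7w 3 (adjusted p = 0.0327) or ND 2 (0.0375).

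Promoters were read for motifs that SREBP and its partners bind, since 11 of the 18 sterol enzymes rose. RefSeq promoter windows (GRCm38.p6, 250 bases before to 50 bases after a start site) were held for 30 of the 35 genes, with no entry for Sqle, Fdft1, Fdps, Fads1 and Stard4. The motifs searched on both strands were TCACNCCAC, a form of the sterol regulatory element, CCAAT, the box bound by NF-Y, a known partner of SREBP, GGGCGG, the GC box bound by Sp1, and CACGTG, an E-box. TCACNCCAC and CCAAT do not overlap in the windows shown. CCAAT was in 14 of the 15 sterol enzymes with a window, the exception being Acat2, in 4 of 5 regulators and in 6 of 9 fatty acid enzymes. It was in 43% of the tested genes with a window and in 41.1% of all genes with one. Among tested genes with a window, 43% of those that rose and 42.1% of those that fell held it. TCACNCCAC was in Hmgcs1 alone of the 30, where 1.39% of the tested genes and 1.44% of all genes held it. GGGCGG was in 14 of 15 sterol enzymes, 5 of 5 regulators and 5 of 9 fatty acid enzymes, against 67.8% of the tested genes and 38.2% of all genes. CACGTG was in 3 of 15 sterol enzymes, 2 of 5 regulators and 1 of 9 fatty acid enzymes, against 11.9% of the tested genes and 8.09% of all genes. The windows of Hmgcs1, Idi1, Cyp51 and Me1, which rose, and of Tm7sf2, which fell, are given below with matches to TCACNCCAC and CCAAT in capitals (ATTGG is CCAAT on the other strand). Cyp51 and Me1 were taken by the size of their rise, and Hmgcs1, Idi1 and Tm7sf2 were chosen after their values were seen. They are, in order, chr13:119690101-119690400 (plus strand), chr13:8885356-8885655 (plus), chr5:4104648-4104947 (minus), chr9:86695865-86696164 (minus) and chr19:6067801-6068100 (minus).
Hmgcs1: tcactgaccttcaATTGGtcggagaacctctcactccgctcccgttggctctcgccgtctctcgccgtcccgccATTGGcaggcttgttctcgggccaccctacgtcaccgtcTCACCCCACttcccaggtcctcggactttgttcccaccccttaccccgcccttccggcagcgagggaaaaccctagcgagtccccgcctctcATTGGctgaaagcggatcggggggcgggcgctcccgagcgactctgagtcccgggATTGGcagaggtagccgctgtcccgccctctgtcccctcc
Idi1: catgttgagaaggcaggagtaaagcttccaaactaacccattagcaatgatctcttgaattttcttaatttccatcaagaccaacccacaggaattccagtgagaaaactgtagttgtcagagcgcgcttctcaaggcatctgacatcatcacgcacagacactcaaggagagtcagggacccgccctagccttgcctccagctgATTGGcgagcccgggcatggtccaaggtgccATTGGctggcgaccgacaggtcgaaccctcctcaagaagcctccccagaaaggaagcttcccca
Cyp51: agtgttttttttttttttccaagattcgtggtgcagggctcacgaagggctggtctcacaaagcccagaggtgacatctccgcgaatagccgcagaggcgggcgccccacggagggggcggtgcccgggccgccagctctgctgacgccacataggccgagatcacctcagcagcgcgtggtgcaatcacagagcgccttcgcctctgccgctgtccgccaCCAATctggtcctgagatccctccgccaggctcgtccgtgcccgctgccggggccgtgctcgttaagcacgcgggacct
Me1: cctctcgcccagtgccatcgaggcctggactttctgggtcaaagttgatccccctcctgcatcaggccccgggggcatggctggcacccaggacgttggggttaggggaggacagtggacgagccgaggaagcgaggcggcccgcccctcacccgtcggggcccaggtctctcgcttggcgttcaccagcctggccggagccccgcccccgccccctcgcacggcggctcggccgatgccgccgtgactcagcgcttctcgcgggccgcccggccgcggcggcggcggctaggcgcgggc
Tm7sf2: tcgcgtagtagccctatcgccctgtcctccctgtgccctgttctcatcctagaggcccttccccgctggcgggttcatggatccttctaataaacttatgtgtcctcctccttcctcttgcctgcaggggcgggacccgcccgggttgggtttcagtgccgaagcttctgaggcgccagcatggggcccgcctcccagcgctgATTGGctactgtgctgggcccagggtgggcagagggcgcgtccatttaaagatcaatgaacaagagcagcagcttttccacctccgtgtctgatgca

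Hmgcs1 held the sterol element at −137 from the start site, written TCACCCCAC, and CCAAT in reverse at −237, −176, −45 and 11. Idi1 held CCAAT in reverse at −45 and −14, Cyp51 forward at −29, and Tm7sf2 in reverse at −47. The Me1 window shown held neither of these motifs, and a second Me1 window (chr9:86687228-86687527) held 1 CCAAT in reverse at −208. A match describes letters in a window and not binding.

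In the fatty acid arm, Acly fell, and the other enzymes that make and join the building blocks did not pass the test. Acly, ATP citrate lyase, which makes cytosolic acetyl-CoA for both arms, averaged 69.6 ± 4.29 FPKM at 7w and 81.0 ± 1.60 FPKM at 10w, against 115 ± 0.415 FPKM in ND. It fell in all 6 CDA-HFD libraries (log2 fold change −0.61, SE 0.05, adjusted p = 7.32e-07). Acss2, which makes acetyl-CoA from acetate, averaged 20.2 ± 0.858 FPKM at 7w and 24.1 ± 4.69 FPKM at 10w, against 21.2 ± 5.47 FPKM in ND (95% interval −0.29 to 0.43). Acaca, acetyl-CoA carboxylase, was the enzyme of this arm nearest to 0. It had 2.19, 1.203 and 1.77 FPKM at 7w and 3.36, 2.85 and 1.86 FPKM at 10w, against 1.85, 3.04 and 1.49 FPKM in ND. The groups overlapped at these low levels and the interval of Acaca was wide, from −0.55 to 0.61. Fasn, fatty acid synthase, averaged 7.07 ± 1.31 FPKM at 7w and 9.24 ± 1.80 FPKM at 10w, against 8.83 ± 1.08 FPKM in ND (−0.53 to 0.29).

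Of the elongases, which add carbons to finished chains, Elovl1 was the most abundant gene of the set, with 122 ± 3.04 FPKM at 7w and 119 ± 4.17 FPKM at 10w, against 126 ± 2.68 FPKM in ND. Elovl1 did not pass the test (log2 fold change −0.07, adjusted p = 0.138), although all 6 CDA-HFD libraries were below all ND libraries, and it passed with quantile normalization (adjusted p = 0.00848). Elovl5 averaged 80.4 ± 10.4 FPKM at 7w and 72.3 ± 4.39 FPKM at 10w, against 69.6 ± 8.40 FPKM in ND (95% interval −0.07 to 0.33), and passed at 7w alone without 7w 3 (adjusted p = 0.024). Elovl6, under the filter, had 0.158, 0.364 and 1.04 FPKM at 7w and 0.841, 1.63 and 0.794 FPKM at 10w, against 0.473, 0.564 and 0.0954 FPKM in ND, values that rest on few reads and overlap.

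The front-end desaturases, which act on polyunsaturated chains, did not move together. Fads1 fell, with 42.8 ± 3.13 FPKM at 7w and 47.1 ± 2.09 FPKM at 10w, against 60.6 ± 2.78 FPKM in ND (log2 fold change −0.42, SE 0.07, adjusted p = 0.000439). Fads2 had 2.93, 5.20 and 3.23 FPKM at 7w and 6.29, 1.82 and 0 FPKM at 10w, against 1.17, 0.414 and 0 FPKM in ND. The 7w libraries were above all ND libraries and 10w 3 was listed at 0, as was ND 3. An exact 0 in such a table can be a failed estimate. Across both CDA-HFD groups Fads2 did not pass (log2 fold change 1.30, SE 0.51, adjusted p = 0.0544). It passed without 10w 3 (1.67, adjusted p = 0.00382), as it then did at 10w alone (adjusted p = 0.0177). At 7w alone it rose (1.69, adjusted p = 0.0357), a call lost without 7w 1 (0.0608), 7w 2 (0.11), 7w 3 (0.0668), 10w 2 (0.0505), ND 2 (0.0835) or ND 3 (0.118).

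Me1, the malic enzyme that makes NADPH for fatty acid synthesis, was the single fatty acid gene that rose. It had 1.43, 1.03 and 0.806 FPKM at 7w and 1.05, 1.22 and 1.23 FPKM at 10w, against 0.108, 0.354 and 0 FPKM in ND. The groups did not overlap, but no library exceeded 1.43 FPKM, and ND 3 was listed at 0. All ND values of Me1 were under 1 FPKM, so it passed the filter only through CDA-HFD libraries, where it is high, and its rise and the count of 1 in this arm depend on that filter. Idi1 and Fads2, with 1 ND library each above 1 FPKM, also needed CDA-HFD libraries to pass it. With a filter at 5 FPKM no fatty acid enzyme rose across both CDA-HFD groups, and 10 sterol enzymes did. The log2 fold change was 0.89 (SE 0.26, adjusted p = 0.0143), and it ran from 0.25 with a pseudocount of 5 to 2.52 with one of 0.1. Me1 no longer passed when ND 1 (adjusted p = 0.0579) or ND 3 (0.0744) was left out. At single times Me1 passed (adjusted p = 0.036 at 7w and 0.0286 at 10w). The 7w call was lost without 7w 1 (0.119), 7w 2 (0.075), ND 1 (0.10), ND 2 (0.0544) or ND 3 (0.124). The 10w call was lost without 10w 1 (0.0508), 10w 2 (0.0699), 10w 3 (0.0638), ND 1 (0.0854) or ND 3 (0.105). At single times, then, 2 of the 9 fatty acid enzymes tested rose and 2 fell at 7w, where 21.3% and 22.4% of all genes did so. At 10w 1 rose and 2 fell, where 19.3% and 20.6% of all genes did so.

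**Figure D5:**
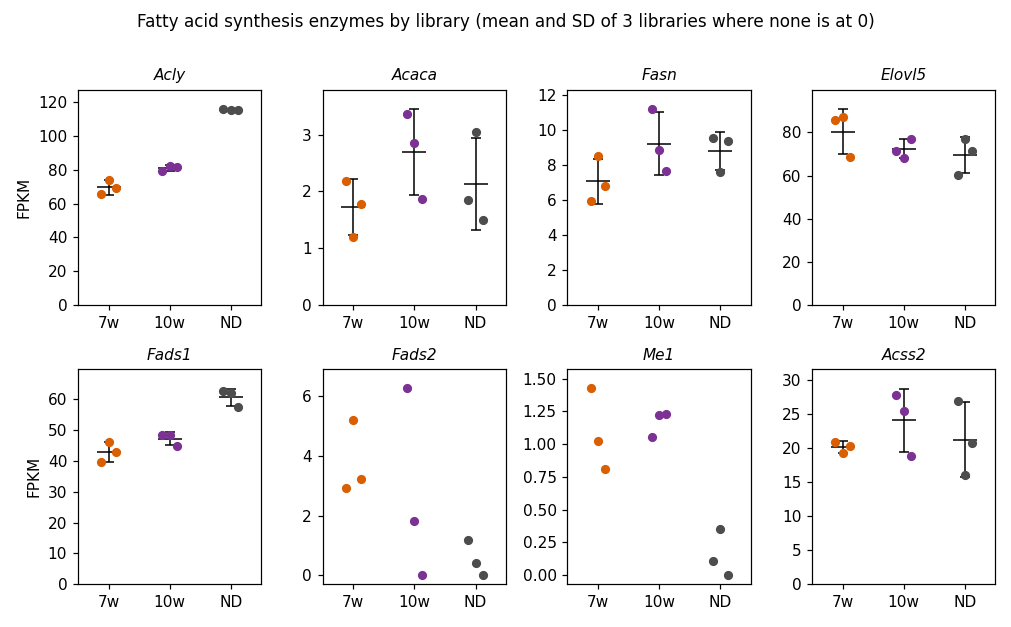
FPKM of 8 fatty acid synthesis enzymes in each library (points), for 7w, 10w and ND from left to right, with group mean and SD (bars, 3 libraries per group) except for Fads2 and Me1, which are listed at 0 in some libraries. Acly and Fads1 are lower in all 6 CDA-HFD libraries than in ND, Me1 is higher at levels of at most 1.43 FPKM, and Fasn, Acaca, Acss2 and Elovl5 overlap.

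Between 10w and 7w no gene of the set passed the test in either direction, by limma with adjusted p from 0.115 to 0.983. Over all genes 0.102% rose and 0.0255% fell at 10w relative to 7w. At an unadjusted p below 0.05 there was 1 gene, Acly, with 79.2, 82.2 and 81.5 FPKM at 10w, against 65.4, 74.0 and 69.3 FPKM at 7w. All 10w libraries were above all 7w libraries for Acly, and the 95% interval of the log2 fold change was 0.10 to 0.34. For Sqle the interval between 10w and 7w was −0.43 to 0.49, and for Fdps it was −0.26 to 0.06. A miss of the threshold does not show that the times were alike, and the intervals give the sizes that remain possible.

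Other genes of the same pathways, from fixed lists outside the set, were read in the same fit. Of 17 other sterol genes tested, 5 rose and 2 fell, with a median log2 fold change of 0.11. Among all tested genes 22.8% rose and 24.3% fell. Npc1, the lysosomal cholesterol exporter, rose to 40.7 ± 1.91 FPKM at 7w and 36.4 ± 3.73 FPKM at 10w, against 28.0 ± 1.24 FPKM in ND (0.44, SE 0.09, adjusted p = 0.00172). Of these 17, the genes that fell were Rnf139 (−0.57, adjusted p = 0.00257), a ubiquitin ligase of the endoplasmic reticulum, and Mbtps1 (−0.56, adjusted p = 0.00197), the site-1 protease that cleaves SREBP. Mbtps1 averaged 24.4 ± 3.65 FPKM at 7w and 35.3 ± 5.28 FPKM at 10w, against 43.6 ± 2.228 FPKM in ND. It was called at 7w (−0.82, adjusted p = 0.000447) and not at 10w (−0.31, adjusted p = 0.0959), and the difference of 10w from 7w did not pass (0.51, adjusted p = 0.12).

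Of 21 other fatty acid genes tested, 5 rose and 6 fell (median −0.08), where 22.8% of all tested genes rose and 24.3% fell. Scd1, stearoyl-CoA desaturase, had 5.54, 3.16 and 5.77 FPKM at 7w and 6.68, 5.35 and 7.14 FPKM at 10w, against 47.7, 51.0 and 42.3 FPKM in ND. It fell more than any member of the set (−2.89, SE 0.19, adjusted p = 1.36e-07). Elovl3, an elongase, was listed at 0 in 5 of the 6 CDA-HFD libraries and at 0.434 FPKM in 7w 1, against 9.43, 1.72 and 4.90 FPKM in ND. Mid1ip1 (−0.66), an activator of acetyl-CoA carboxylase, and the dehydratase Hacd4 (−0.40) also fell. The acyl-CoA synthetases Acsl1 (0.60) and Acsl3 (0.58), the dehydratase Hacd2 (0.47) and the 3-ketoacyl-CoA reductase Hsd17b12 (0.36) rose. Of 9 genes in a list of LXR targets and receptors, 6 fell and 1 rose, where 24.3% of all tested genes fell and 22.8% rose. The 6 include Nr1h2 (−0.17), which encodes the receptor LXR-beta and is not counted here as a target. They also include Apoe (−0.08), whose values of 310 to 357 FPKM lie around the cap set by duplicate removal (319 to 370 FPKM). The sterol exporters Abca1 (−0.61) and Abcg1 (−0.32), the phospholipid transfer protein Pltp (−0.41) and Nr1h3 itself (−0.32), which encodes LXR-alpha, were lower, and the apolipoprotein Apoc2 was higher (1.33). Hepatocytes also express Scd1, Elovl3 and Apoc2, and the part of the lower hepatocyte marker sums in these values was not tested.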

How the data were processed

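RNA of sorted Ly6C-low F4/80+ liver macrophages was converted to cDNA with a SMART-Seq HT kit, tagmented with Nextera XT and sequenced as single-end reads of 75 bases. The submitters' processing notes list GRCm38 (mm10), HISAT2 (2.2.1), featureCounts (2.0.1) and Trimmomatic (0.36.0). The methods also name Picard for duplicate removal, and Cufflinks as another quantifier. The authors deposited 1 table of FPKM by gene symbol, although their methods mention TPM. Column sums differ (444820 to 458790), so the values were treated as FPKM. Of 24776 entries 1 was incomplete, and 721 entries sharing 257 symbols were summed. Depth was estimated from steps of low values, 55.4% to 62.7% of which came within 0.1 of a whole read, so it is approximate and no counts were recovered. By that estimate, removal of duplicates caps values at 319 to 370 FPKM.

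Differences were tested with limma (3.58.1, R 4.3.3, trend and robust) on log2(FPKM + 1), in 1 model of 3 group means over the 11783 genes that reached 1 FPKM in 3 or more libraries. Benjamini-Hochberg adjustment ran over all of them, two-sided, at 0.05. Fold changes are on this scale, which understates those of low genes. CDA-HFD against ND is the mean of the 2 CDA-HFD group means against ND. Values after ± are SDs and SE is the limma standard error. The script was tested on simulated data. Genes and lists were chosen with earlier results of these data known. All 35 genes are named. Library values are given for enzymes and regulators called with an absolute log2 fold change of at least 0.8, for Srebf1 and Srebf2 and for the enzyme nearest to 0 in each arm, and also for genes under the filter, listed at 0 or nearest to passing between 10w and 7w. Genes named from the outside sterol, fatty acid and LXR lists have the largest changes among the called, up to 4 per list and direction. Of the outside sterol genes that rose, only Npc1, with the largest rise among those called, is named. Lbr was named for its role, Nr1h2 as a receptor and Apoe for its level near the cap. Some sterol genes outside the set are not reported here and were left out of the list's counts. Positions are from GENCODE M21 (GRCm38). Alternatives were other pseudocounts, filters, scalings and variance models, a fit of the compared groups, the highest entry per symbol, a replicate block, each library left out, and, added after seeing the data, a correction for the cap.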

Additional observations from a re-analysis of the deposited data

How the results depend on the processing

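No called result changed direction under any alternative run. The count of sterol enzymes that rose stayed between 9 and 12 across both CDA-HFD groups (11 as reported), 8 and 11 at 7w, and 8 and 12 at 10w, and 1 fell in each. The count of fatty acid enzymes that rose was less stable. Across both groups (1 as reported) it was 0 with a filter at 5 FPKM and 2 with a replicate block. At 7w (2 as reported) it was 1 with a pseudocount of 0.1 or 5, without a filter, with quantile normalization, without trend and robust, in a fit of the compared groups or with a replicate block, and 0 with a filter at 5 FPKM, which leaves out Me1 and Fads2. At 10w (1 as reported) it was 0 with a pseudocount of 5, a filter at 5 FPKM or quantile normalization. Leaving out 1 library gave 0 to 2 across both groups, 0 to 2 at 7w and 0 to 1 at 10w. Other causes were not tested.

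Deviations from the group means correlated at r from −0.0621 to 0.0922 between same-numbered libraries and from −0.104 to 0.0783 between the others. These values cannot decide whether the numbers pair the libraries, since each group mean rests on only 3 libraries. With the replicate block 12 sterol enzymes rose across both groups, with Pmvk added (adjusted p = 0.00548), 11 at 7w and 12 at 10w, and Fads2 passed across both groups (0.027). Acat2 was also lost across both groups without a filter (0.0592), after rescaling to TPM (0.056) or in a fit of the compared groups (0.0538). The correction for the cap moved no count of enzymes. Genes near 1 FPKM (Me1, Fads2, Idi1, Elovl6) rest on few reads, so their fold changes depend on the pseudocount. With 3 libraries per group, a library left out leaves 2 in its group.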
